A study of Mus musculus with 6 samples.

Results

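The genes of the troponin subunits and of 3 tropomyosins were followed through Kap1 knockdown and differentiation in cultured muscle cells. The 10 genes were chosen by name and by role, with earlier results of these data known, out of the 37991 genes counted: the troponin T genes Tnnt1, Tnnt2 and Tnnt3, the troponin I genes Tnni1 and Tnni2, the troponin C genes Tnnc1 and Tnnc2, and the tropomyosin genes Tpm1, Tpm2 and Tpm3. All 10 have a row in every count table, and 8 had enough counts to be tested; Tnnc1 and Tnnc2 did not. Troponin T and troponin I levels were lower under knockdown mainly in libraries of cells kept in differentiation medium, 1 library per group. In edgeR, genes were called only when a mark in the file names was a term of the fit. In the library labelled MT_shKap1 the troponin T and troponin I genes stood between 9.63-fold and 83-fold lower than in MT_shCtrl, Tpm2 3.12-fold lower, and Tpm1 and Tpm3 within 1.31-fold.

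The cells were C2C12, an established line of mouse C3H myoblasts. Lentivirus had brought a short hairpin against Kap1 into MB_shKap1 and MT_shKap1 cells; Kap1, also known as Trim28, is a co-repressor protein recruited to chromatin by DNA-binding factors. In MB_shCtrl and MT_shCtrl cells the virus brought a hairpin against luciferase, which mammalian cells lack, so every group was virus-transduced. MB cells were proliferating in 10% fetal calf serum, and MT cells had spent 48 hours in medium with 2% horse serum, insulin, transferrin and selenium. PolyA RNA of the cytoplasm was sequenced, which gave 2 MB_shKap1, 2 MB_shCtrl, 1 MT_shKap1 and 1 MT_shCtrl libraries. The comparison asks how transcripts of proliferating and of differentiating C2C12 cells differ once Kap1 is reduced. A line is not a set of animals, and nothing in the labels says that libraries of 1 group came from separate cultures, so the p-values measure the spread between these libraries, which may be technical.

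Troponin and tropomyosin are the calcium switch of striated muscle. Tropomyosin is a coiled coil that lies along the actin filament and covers the sites where myosin binds. Troponin T anchors the troponin complex to tropomyosin, troponin I holds the filament in the off state, and troponin C binds calcium and releases that hold. Troponin T and troponin I come in slow skeletal, fast skeletal and cardiac versions from separate genes, troponin C of slow fibres and heart shares a gene, and embryonic skeletal muscle also uses cardiac troponin T. Tropomyosin genes are also used outside muscle, where alternative promoters and splicing give short and long forms on actin stress fibres. A count per gene does not separate those forms.

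The troponin genes sit in pairs, a troponin I gene near a troponin T gene. In the RefSeq gene table of GRCm38.p6, Tnni1 and Tnnt2 flank Lad1 on chromosome 1, Tnni2 and Tnnt3 flank Lsp1 on chromosome 7, and Tnnt1 stands beside Tnni3, the cardiac troponin I gene, elsewhere on chromosome 7. RefSeq promoter windows of the same build, running from 250 bases before to 50 bases after a gene start, matched 8 of the 10 genes by symbol, with 11 windows in all. The 5 windows below are of genes whose levels differed between libraries, to show what lies at the starts of troponin genes lower in MT knockdown (Tnnt1, Tnnt2 and Tnni1), of a tropomyosin gene lower there by less (Tpm2), and of one that fell on differentiation of control cells (Tpm3). Where a gene had 2 windows, the one that starts first is printed. They are written 5′ to 3′ along the gene. Capitals mark the E-box CANNTG, the letters that myogenic bHLH factors such as MyoD bind, and the MCAT element CATTCC, known from the chicken cardiac troponin T promoter.
Tnnt1, chr7:4515926-4516225, minus strand: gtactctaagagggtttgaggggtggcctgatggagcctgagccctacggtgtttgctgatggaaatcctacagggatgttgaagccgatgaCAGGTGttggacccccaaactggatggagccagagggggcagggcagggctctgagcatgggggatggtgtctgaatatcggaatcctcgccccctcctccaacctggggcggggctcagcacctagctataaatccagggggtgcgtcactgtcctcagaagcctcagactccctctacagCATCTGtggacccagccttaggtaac
Tnnt2, chr1:135836084-135836383, plus strand: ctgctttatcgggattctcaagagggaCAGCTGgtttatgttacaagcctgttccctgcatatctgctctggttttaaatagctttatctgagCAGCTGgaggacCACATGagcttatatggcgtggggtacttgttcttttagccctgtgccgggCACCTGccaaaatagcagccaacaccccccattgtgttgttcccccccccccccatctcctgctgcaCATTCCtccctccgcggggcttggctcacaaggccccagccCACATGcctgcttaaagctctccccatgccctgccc
Tnni1, chr1:135799171-135799470, plus strand: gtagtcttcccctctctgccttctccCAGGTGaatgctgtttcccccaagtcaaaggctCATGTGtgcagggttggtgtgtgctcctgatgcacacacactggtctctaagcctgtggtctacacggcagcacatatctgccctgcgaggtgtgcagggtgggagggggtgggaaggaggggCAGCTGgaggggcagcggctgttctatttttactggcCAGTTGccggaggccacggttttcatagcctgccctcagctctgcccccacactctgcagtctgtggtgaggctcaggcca
Tpm2, chr4:43523505-43523804, minus strand: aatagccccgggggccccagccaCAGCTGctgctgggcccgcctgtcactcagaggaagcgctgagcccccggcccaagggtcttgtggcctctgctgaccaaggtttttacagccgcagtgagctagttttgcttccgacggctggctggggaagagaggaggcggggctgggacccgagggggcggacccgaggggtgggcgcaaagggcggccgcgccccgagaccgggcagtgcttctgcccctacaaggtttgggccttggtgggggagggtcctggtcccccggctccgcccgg
Tpm3, chr3:90072401-90072700, plus strand: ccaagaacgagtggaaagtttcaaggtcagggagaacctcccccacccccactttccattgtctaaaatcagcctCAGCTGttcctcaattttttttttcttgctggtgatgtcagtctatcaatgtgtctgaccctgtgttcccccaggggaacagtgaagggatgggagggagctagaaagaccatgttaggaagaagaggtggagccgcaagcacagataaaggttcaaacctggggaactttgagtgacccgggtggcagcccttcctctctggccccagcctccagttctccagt

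These windows were searched on both strands for CANNTG, for CAGCTG (the E-box form within CANNTG most often named for MyoD), for CATTCC, and for the MEF2 and CArG box motifs. The printed Tnnt2 window held 5 E-boxes, 2 of them CAGCTG, and 1 CATTCC. The printed Tnni1 window held 4 E-boxes, 1 of them CAGCTG, and the Tnnt1 window held 2 with no CAGCTG. The printed Tpm2 and Tpm3 windows held 1 E-box each, and in both it was CAGCTG. The second Tnnt2 window held 2 E-boxes with no CAGCTG and no CATTCC, the second Tnni1 window 2 E-boxes with 1 CAGCTG, and the second Tpm3 window 1 E-box with no CAGCTG. Of the genes with no window printed, Tnnc1 and Tnnc2 had 2 E-boxes each and Tpm1 had 1, none of them CAGCTG. Tnnc1 and Tpm1 had 1 CATTCC each. No window of the 10 genes held a MEF2 or CArG match, which says only that those letters were not in these windows. Of 32817 windows of the same length across genes, 72.3% held CANNTG, with a mean of 1.39 matches per window. CAGCTG was in 16.3% of them, CATTCC in 14.7%, the MEF2 motif in 3.19% and the CArG box in 1.63%. The matches are a description of sequence and carry no measurement of binding.

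The libraries held 36247530 to 49839994 counts on genes, with 19386 to 21351 genes detected. Levels are given as CPM, a gene's counts scaled to the total of counts on genes in its library; 3 counts, used as the floor, equal 0.0602 to 0.0828 CPM. Trim28 stood at 152 and 101 CPM in MB_shKap1, against 587 and 417 CPM in MB_shCtrl, and at 122 CPM in MT_shKap1, against 382 CPM in MT_shCtrl; both knockdown groups stood below every control library. All 8 myoblast markers, Myod1 and Myf5 among them, had at least 1 count in every library. Pax7 lay below the floor, at 1 count, in MB_shKap1 replicate 1 and in both MB_shCtrl libraries. The markers summed to 1357 CPM in MT_shKap1 and 2966 CPM in MT_shCtrl. Myod1 had 27.5 CPM in MT_shKap1, against 233 CPM in MT_shCtrl, while Myf5 had 82.4 CPM in MT_shKap1, against 34.8 CPM in MT_shCtrl. A mark in the deposited file names is present on replicate 1 of both MB groups and on both MT libraries, and absent from replicate 2 of both MB groups. The sources used here do not explain it. The 2 kinds of MB library stood apart: replicate 2 minus replicate 1 differed across 16472 genes in much the same way in knockdown and control cells (Pearson r = 0.826 across genes, which are not independent replicates).

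That difference touched the troponin T and troponin I genes more than most genes. In MB cells, Tnnt1 in replicate 2 was above replicate 1 by 3.60 in MB_shKap1 and 3.69 in MB_shCtrl, as log2 of CPM plus 0.5. Of the tested genes, 0.109% in MB_shKap1 and 0.0668% in MB_shCtrl had a larger rise. The same difference was 2.50 and 3.12 for Tnnt3, 2.36 and 3.51 for Tnni1, and 2.22 and 2.72 for Tnni2, in MB_shKap1 and MB_shCtrl libraries in that order. It was smaller for Tnnt2, at 0.96 in MB_shKap1 and 0.42 in MB_shCtrl, where 3.77% and 12.9% of tested genes had a larger rise. It had the opposite sign for Tpm2, at -0.89 in MB_shKap1 and -0.47 in MB_shCtrl. For Tnnt1, Tnnt3, Tnni1 and Tnni2 the replicates of a group thus lay further apart than the 2 hairpins did within a replicate number.

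For this reason 2 fits are given. The edgeR quasi-likelihood fit with a mean per group and no term for the file mark called no member in any of the 5 comparisons (adjusted p threshold 0.05); of the 8 tested members, 0, 2, 0, 6 and 2 had an unadjusted p under 0.05 in MB knockdown, MT knockdown, MT against MB in knockdown cells, MT against MB in control cells, and the interaction. It called 0% of all genes in each comparison. Of the 16472 genes tested, 454, 1383, 2511, 4174 and 825 had an unadjusted p under 0.05, in the same order. DESeq2 on the same design called 0, 2, 0, 5 and 1 members. Among all genes with an adjusted p, DESeq2 called 52 of 19437, 360 of 15605, 835 of 13689, 2379 of 15126 and 158 of 15126. The calls below come from the edgeR fit with the file mark as a term, which leaves 1 residual degree of freedom and lowers the common biological coefficient of variation from 32.9% to 9.74%. Each MT group is 1 library, so the MT comparisons have no replicate of their own and assume that an MT library varies as MB libraries do after the mark is taken out.

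**Figure D1:**
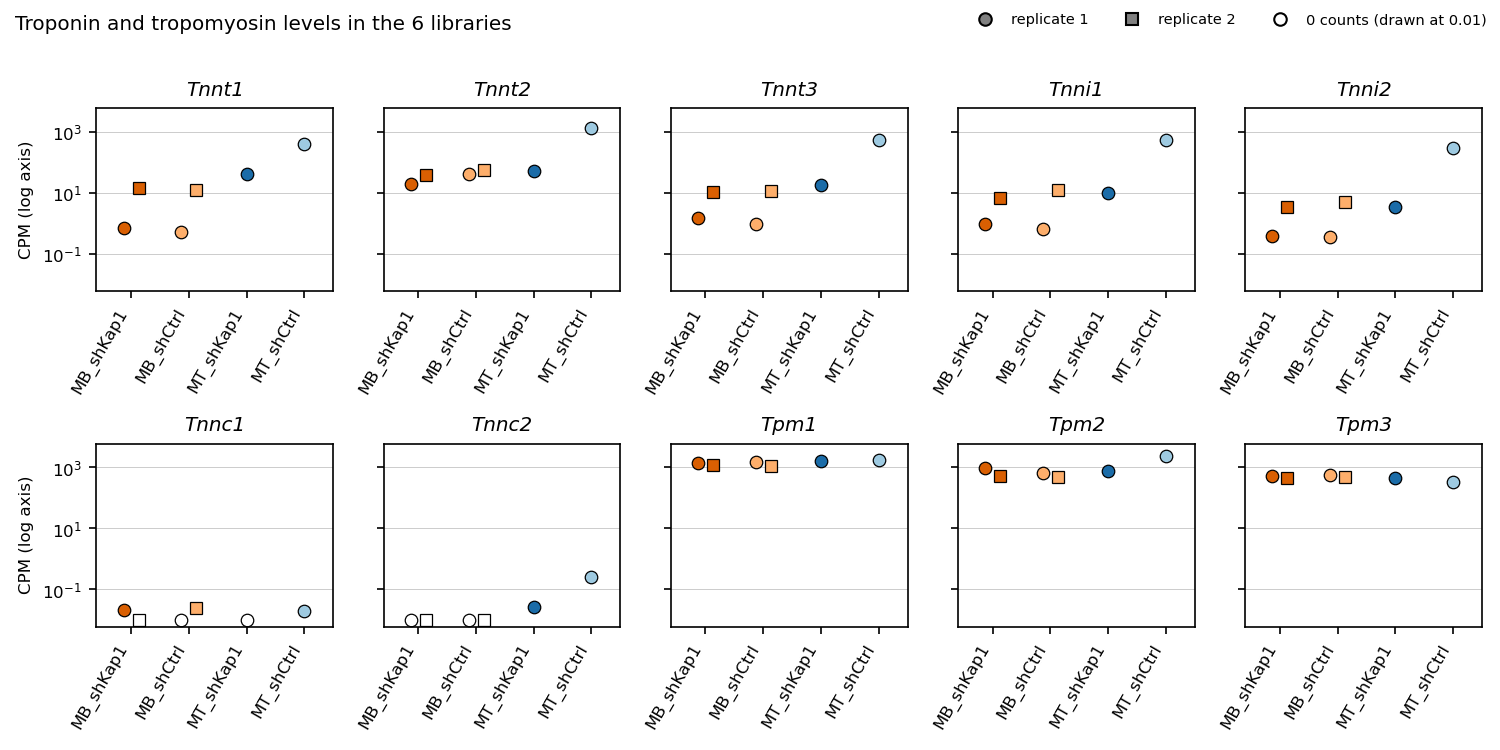
Level of each troponin and tropomyosin gene in the 6 libraries, as CPM on a log axis; circles are replicate 1 and the single MT libraries, squares are replicate 2, and open symbols, drawn at 0.01, are libraries with 0 counts. Tnnt1, Tnnt3, Tnni1 and Tnni2 reach 300 CPM or more in MT_shCtrl and at most 43.2 CPM in MT_shKap1, and their MB replicates stand apart from each other in both groups, while Tpm1 stays between 1125 and 1699 CPM.

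All 3 troponin T genes were lower in the MT_shKap1 library than in the MT_shCtrl library. Tnnt2, the cardiac and embryonic form, had 55.5 CPM in MT_shKap1, against 1375 CPM in MT_shCtrl. These are 2012 and 68534 counts, and the level in the knockdown library was 24.8-fold lower (95% interval of counting error 23.7 to 25.9). Tnnt3, the fast skeletal form, had 18.2 CPM in MT_shKap1, against 569 CPM in MT_shCtrl, 31.3-fold lower (29 to 33.9). Tnnt1, the slow skeletal form, had 43.2 CPM in MT_shKap1, against 416 CPM in MT_shCtrl, 9.63-fold lower (9.15 to 10.1). Tnnt1 thus kept the largest fraction of its control level among the 3 troponin T genes in these single libraries.

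In the fit, knockdown lowered Tnnt1 in MT cells by a log2 change of -3.40 ± 0.145 (SE, adjusted p = 2.08e-07, edgeR), Tnnt2 by -4.77 ± 0.231 (adjusted p = 1.48e-05) and Tnnt3 by -5.11 ± 0.219 (adjusted p = 3.93e-06). Counted over all members, 6 of the 8 tested were lower and none was higher in MT_shKap1; 20.3% of all genes tested were called in this comparison, 9.09% higher and 11.2% lower. The median log2 change of the 8 tested members was -4.09, beside 0.02 for all genes tested. With total counts in place of TMM scaling, the median of all genes moved by 0.14 in this comparison and by 0.11 in the interaction.

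Troponin I went the same way. Tnni1, the slow skeletal form, had 10.2 CPM in MT_shKap1, against 566 CPM in MT_shCtrl, 55.8-fold lower (50.3 to 62). Tnni2, the fast skeletal form, had 3.61 CPM in MT_shKap1, against 300 CPM in MT_shCtrl, 83-fold lower (69.8 to 99.3), the largest fold among the members. The fitted log2 changes were -5.94 ± 0.389 for Tnni1 (SE, adjusted p = 0.00245, edgeR) and -6.51 ± 0.189 for Tnni2 (adjusted p = 3.52e-08). Tnni3, the cardiac form and no member, had 3.45 CPM in MT_shKap1, against 1.89 CPM in MT_shCtrl, and its log2 change of 0.73 ± 0.351 did not pass (adjusted p = 0.175). Tnni3 shares exon sequence with Dnaaf3 on the same strand, so its counts are uncertain.

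Troponin C was close to absent from the counts. Tnnc1, the slow skeletal and cardiac calcium sensor, had at most 1 count in any library. Tnnc2, the fast skeletal calcium sensor, had 0 counts in all 4 MB libraries, 1 count in MT_shKap1 and 13 counts in MT_shCtrl, which is a ratio of 0.106 (0.00249 to 0.704, counting error only) between the MT libraries. The 13 counts stand beside 14942 counts of Tnni2 in the same library, although the 2 proteins work in 1 complex. In the GRCm38 annotation the whole of Tnnc1 lies inside the span of Nisch on the opposite strand, and 59.2% of Tnnc2 is overlapped by Ube2c, also on the opposite strand. Exons of Tnnc2 and Ube2c overlap, while no exon of Tnnc1 overlaps one of Nisch. Nisch had 549 CPM in MT_shKap1, against 776 CPM in MT_shCtrl, and Ube2c had 88.7 CPM in MT_shKap1, against 47.1 CPM in MT_shCtrl. The sources used here do not give the strand setting of the counting, so for Tnnc2 a low level and reads set aside as ambiguous or given to Ube2c cannot be told apart. For Tnnc1 that would need a count over whole gene spans, and the counted feature is not given either. Of 447 protein-coding genes that lie within a protein-coding gene of the other strand, 34.5% had 3 counts or fewer in every library, against 27.4% of the 19767 other protein-coding genes.

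The tropomyosins were far more abundant than the troponins in proliferating cells and were set apart by gene. Tpm2, the tropomyosin of slow fibres and of smooth muscle, had 778 CPM in MT_shKap1, against 2429 CPM in MT_shCtrl, with a log2 change of -1.78 ± 0.172 (SE, adjusted p = 9.81e-05, edgeR). Tpm1, the tropomyosin of heart and fast fibres that also has forms in most cells, had 1631 CPM in MT_shKap1, against 1699 CPM in MT_shCtrl, and its change of -0.20 ± 0.147 did not pass (adjusted p = 0.395). Tpm3, whose long form serves slow fibres and whose short forms occur in most cells, had 442 CPM in MT_shKap1, against 338 CPM in MT_shCtrl, and its change of 0.25 ± 0.138 did not pass (adjusted p = 0.238). Tpm3 has related copies in the mouse genome that can share reads, so its level is less certain. Tpm4, a tropomyosin of non-muscle cells and no member, had 582 CPM in MT_shKap1, against 444 CPM in MT_shCtrl, with a change of 0.25 ± 0.141 that did not pass either (adjusted p = 0.242).

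**Figure D2:**
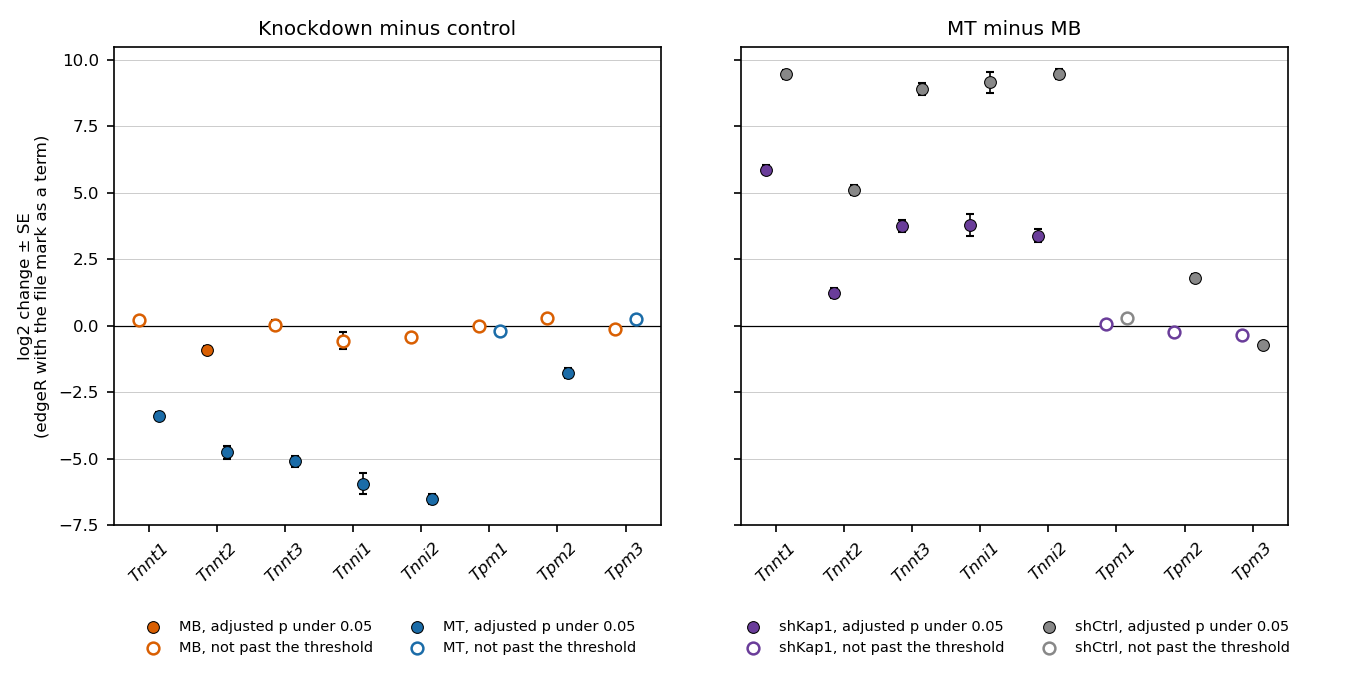
Log2 change of the 8 tested members, with its SE, in the edgeR fit with the file mark as a term; filled points passed an adjusted p of 0.05. Knockdown minus control (left) lies between -1.78 and -6.51 for the 6 called genes in MT cells and near 0 for most in MB cells; MT minus MB (right) is higher in control than in knockdown cells for the 5 troponin genes, at 5.11 to 9.47 in shCtrl cells beside 1.24 to 5.86 in shKap1 cells.

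In proliferating cells the knockdown comparison gave 1 call. Tnnt2 had 20 and 39.2 CPM in MB_shKap1 (mean 29.6 ± 13.6, SD, n = 2), against 44.2 and 59.3 CPM in MB_shCtrl (mean 51.7 ± 10.7, SD, n = 2). The 2 groups did not overlap, but how many of all genes stood apart in this way was not counted. Within each kind of library the knockdown was lower, by a log2 difference of -1.13 among libraries with the mark and -0.59 among those without it. The fitted change was -0.90 ± 0.145 (SE, adjusted p = 0.0202, edgeR); 1 of the 8 tested members was called, beside 3.84% of all genes tested, 2.51% higher and 1.34% lower. Without the mark as a term the change was -0.83 ± 0.399 with an adjusted p of 1 in edgeR, and it ran between -1.42 without MB_shKap1 replicate 2 and -0.41 without MB_shKap1 replicate 1.

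None of the other members passed in MB cells. Tnnt1 had 0.75 and 14.7 CPM in MB_shKap1, against 0.548 and 13 CPM in MB_shCtrl. Tnnt3 had 1.52 and 11 CPM in MB_shKap1, against 0.953 and 12.2 CPM in MB_shCtrl. For both genes the groups overlapped, and the replicates within a group lay further apart than the groups. Tnni1 had 0.986 and 7.14 CPM in MB_shKap1, against 0.667 and 12.8 CPM in MB_shCtrl, with a log2 change of -0.56 ± 0.314 (adjusted p = 0.486, edgeR). Tnni2 had 0.386 and 3.62 CPM in MB_shKap1, against 0.358 and 5.17 CPM in MB_shCtrl, with a change of -0.44 ± 0.17 (adjusted p = 0.218, edgeR). Replicate 1 held only 46 counts of Tnni1 in MB_shKap1 and 28 in MB_shCtrl, and 18 and 15 counts of Tnni2. The ratio of MB_shKap1 over MB_shCtrl in replicate 1 was 1.48 for Tnni1 (0.904 to 2.45) and 1.08 for Tnni2 (0.514 to 2.3). In replicate 2 it was 0.557 for Tnni1 (0.483 to 0.643) and 0.7 for Tnni2 (0.566 to 0.865), counting error only. Both replicate 1 intervals include 1, so the direction there is uncertain.

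The tropomyosins of MB cells were close between the hairpins. Tpm1 had 1436 and 1189 CPM in MB_shKap1, against 1461 and 1125 CPM in MB_shCtrl, with a fitted log2 change of -0.00 ± 0.104. Tpm2 had 941 and 509 CPM in MB_shKap1, against 659 and 475 CPM in MB_shCtrl, and its change of 0.28 ± 0.119 did not pass (adjusted p = 0.27, edgeR). Tpm3 had 531 and 468 CPM in MB_shKap1, against 575 and 490 CPM in MB_shCtrl, with a change of -0.12 ± 0.0976 (adjusted p = 0.592, edgeR). For each of the 3 genes the groups overlapped.

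Differentiation of control cells brought the troponin genes up from low levels. The calls count 6 members higher in MT_shCtrl than in MB_shCtrl and 1 lower, of 8 tested; 44.9% of all genes were called in this comparison, 22.3% higher and 22.6% lower. The log2 changes of MT_shCtrl over MB_shCtrl were 9.46 ± 0.169 for Tnnt1, 5.11 ± 0.192 for Tnnt2, 8.90 ± 0.223 for Tnnt3, 9.16 ± 0.391 for Tnni1 and 9.47 ± 0.195 for Tnni2 (SE, largest adjusted p = 0.000242, edgeR). Tpm2 rose by 1.80 ± 0.156 (adjusted p = 1.41e-05), Tpm3 fell by 0.73 ± 0.131 (adjusted p = 0.00132), and Tpm1 at 0.27 ± 0.137 did not pass (adjusted p = 0.134). Tpm4 moved with Tpm3, at -0.91 ± 0.135 (adjusted p = 0.000399).

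The size of these rises depends on which MB library stands below the MT library. With the mark as a term the fit sets the MT libraries against MB cells at the level of replicate 1. Tnnt1 in MT_shCtrl was 759-fold its level in MB_shCtrl replicate 1 (506 to 1198) and 32-fold its level in replicate 2 (29.3 to 34.9). The same folds were 596 and 46.8 for Tnnt3, 849 and 44.2 for Tnni1, and 838 and 58 for Tnni2, over replicate 1 and replicate 2. For Tnnt2 they were 31.1 and 23.2, and for Tpm2 3.69 and 5.11. MT_shCtrl stood above both MB_shCtrl libraries for these 6 genes, which were the ones called higher. How many of all genes did the same was not counted, so this is a description only.

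Knockdown cells gained less. In MT_shKap1 against MB_shKap1, 5 members were called higher and none lower, of 8 tested, beside 33.1% of all genes tested, 16.6% higher and 16.5% lower. The log2 changes were 5.86 ± 0.167 for Tnnt1, 1.24 ± 0.191 for Tnnt2, 3.75 ± 0.219 for Tnnt3, 3.78 ± 0.41 for Tnni1 and 3.39 ± 0.247 for Tnni2 (SE, largest adjusted p = 0.00592, edgeR). Tpm1 at 0.08 ± 0.138, Tpm2 at -0.25 ± 0.156 and Tpm3 at -0.36 ± 0.13 did not pass (smallest adjusted p = 0.0601). These rises were much smaller over MB_shKap1 replicate 2. MT_shKap1 was 57.6-fold over replicate 1 but 2.94-fold over replicate 2 for Tnnt1 (2.68 to 3.23), 11.9-fold and 1.66-fold for Tnnt3, and 10.3-fold and 1.42-fold for Tnni1. For Tnni2 it was 9.37-fold over replicate 1 and 0.999-fold over replicate 2 (0.786 to 1.27), and for Tnnt2 2.78-fold and 1.42-fold. Tpm2 was 0.827-fold over replicate 1 and 1.53-fold over replicate 2, so its direction depended on the library.

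The difference between the MT and MB knockdown effects was tested as an interaction. It was called below 0 for 6 of the 8 tested members, beside 10.5% of all genes called, 3.82% higher and 6.63% lower. The values were Tnnt1 at -3.61 ± 0.191, Tnnt2 at -3.87 ± 0.256, Tnnt3 at -5.15 ± 0.268, Tnni1 at -5.38 ± 0.472, Tnni2 at -6.07 ± 0.247 and Tpm2 at -2.06 ± 0.208 (SE, largest adjusted p = 0.00888, edgeR). The knockdown thus changed these 6 genes more in MT than in MB cells by this fit. Tpm1 at -0.19 ± 0.181 and Tpm3 at 0.37 ± 0.169 did not pass (adjusted p = 0.562 and 0.207). The interaction is built from the same libraries as the 4 comparisons above and is no separate evidence. Tnnt2 was called in all 5 comparisons.

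**Figure D3:**
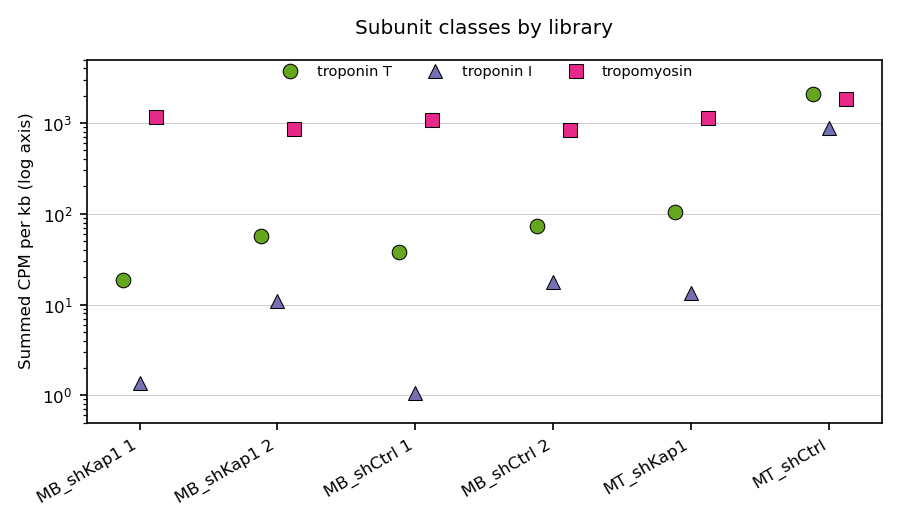
Summed level of the troponin T, troponin I and tropomyosin genes in each library, as CPM per kilobase of the longest coding transcript, on a log axis. Troponin T stands at 104 in MT_shKap1 and 2066 in MT_shCtrl, beside tropomyosin at 1120 and 1856, and below 73 in the MB libraries; Tnni3 and Tpm4 are not in the sums.

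Levels can be set side by side between genes once divided by length, here the longest coding transcript of each gene in the GRCm38 annotation. The sums hold the members only, without Tnni3 and Tpm4. On this scale troponin T summed to 104 CPM per kb in MT_shKap1, against 2066 CPM per kb in MT_shCtrl. Troponin I summed to 13.5 CPM per kb in MT_shKap1, against 883 CPM per kb in MT_shCtrl, and tropomyosin to 1120 CPM per kb in MT_shKap1, against 1856 CPM per kb in MT_shCtrl. Troponin T was therefore 9.28% of tropomyosin in MT_shKap1 and 111% in MT_shCtrl, beside 1.61% and 6.63% in MB_shKap1 and 3.59% and 8.82% in MB_shCtrl. MT_shKap1 stood just above the highest MB library in this ratio and far from MT_shCtrl. With Tpm4 added to tropomyosin, a choice made after seeing the data, the ratio was 7.45% in MT_shKap1 and 100% in MT_shCtrl, so whether troponin T passed tropomyosin in MT_shCtrl depends on that gene. In a bulk library, fewer cells with a high level and less RNA per cell cannot be told apart.

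The make-up of troponin T also differed between the MT libraries. Tnnt1 was 39.3% of troponin T in MT_shKap1, against 19% in MT_shCtrl. Tnnt2 was 44.5% in MT_shKap1, against 55.5% in MT_shCtrl, and Tnnt3 16.2% in MT_shKap1, against 25.5% in MT_shCtrl. In MB cells Tnnt2 held 88.7% and 57.6% of troponin T in MB_shKap1 and 96.3% and 67.7% in MB_shCtrl, with the lower value in replicate 2 of each group. Of the sum of Tnni1 and Tnni2, Tnni1 held 55.5% to 65.2% in the 6 libraries. With Tnni3 added it held 51% in MT_shKap1, against 55.7% in MT_shCtrl, and 37% to 57.5% in the MB libraries, where Tnni3 was up to 33.3% of a low sum. Tpm2 held 31.9% of tropomyosin in MT_shKap1, against 60.2% in MT_shCtrl, and Tpm3 17.7% in MT_shKap1, against 8.16% in MT_shCtrl. These shares rest on the length used. With the union of all exons as the length, chosen after seeing the data, Tnnt1 was 51.3% of troponin T in MT_shKap1, against 26% in MT_shCtrl, and Tpm2 45.2% of tropomyosin in MT_shKap1, against 72.4% in MT_shCtrl, so the side that was higher held, but Tnnt2 was 18.7% in MT_shKap1 and 24.5% in MT_shCtrl, below Tnnt3 at 30% and 49.5%. Troponin T was then 6.46% of tropomyosin in MT_shKap1, against 63% in MT_shCtrl. Tnni1 was then 43.7% to 53.9% of Tnni1 plus Tnni2. Which troponin T or troponin I gene led is therefore uncertain from these counts.

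**Figure D4:**
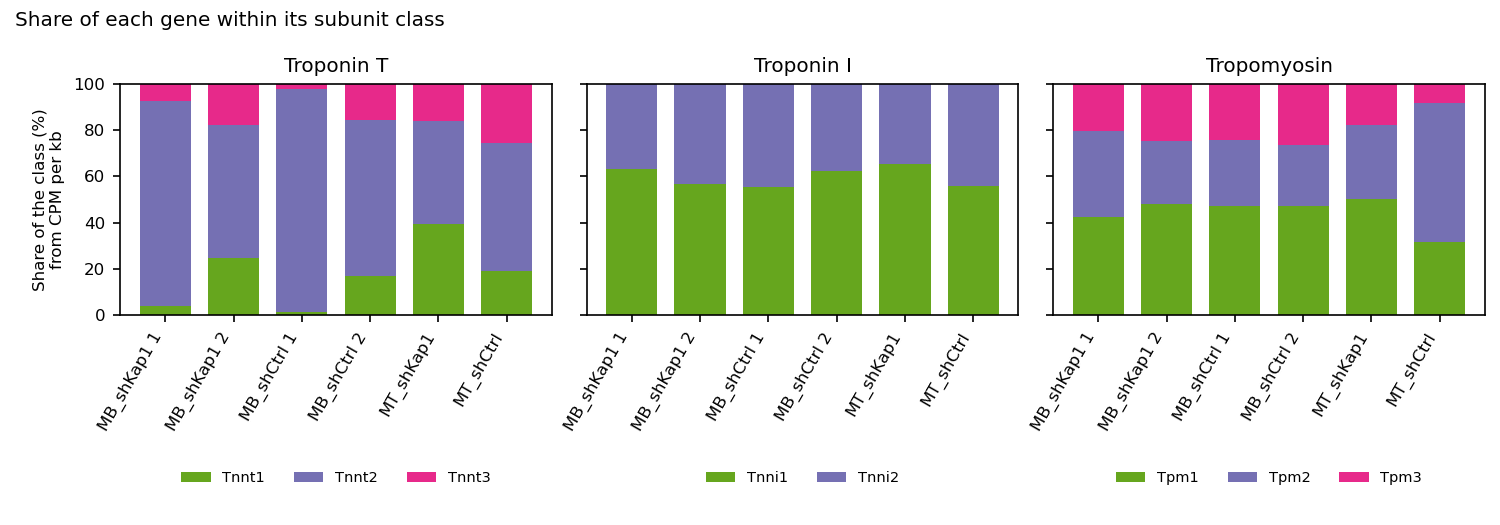
Share of each gene in the summed CPM per kilobase of its subunit class, in percent, for the 6 libraries; lengths are those of the longest coding transcript. The Tnnt1 share is 39.3% in MT_shKap1 and 19% in MT_shCtrl, the Tpm2 share 31.9% in MT_shKap1 and 60.2% in MT_shCtrl, and the Tnni1 share of Tnni1 plus Tnni2 lies between 55.5% and 65.2%.

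The other genes of the filament were read from named lists. Of 14 tested genes of the sarcomeric thin filament and its assembly, 10 were lower and none higher in MT_shKap1 than in MT_shCtrl, with a median log2 change of -5.52 beside 0.02 for all genes. Acta1, the skeletal actin that carries troponin and tropomyosin, had 33.8 CPM in MT_shKap1, against 1981 CPM in MT_shCtrl (-6.01 ± 0.202). Neb, the giant protein nebulin that runs along the filament, changed by -5.81 ± 0.19, Tmod1, a cap of the filament's pointed end, by -5.70 ± 0.33, and Lmod3, a nucleator of actin filaments, by -5.38 ± 0.243 (SE, largest adjusted p = 1.85e-06, edgeR). Of 17 tested actin filament genes of most cell types, 3 were higher and 1 lower, beside 9.09% higher and 11.2% lower over all genes. They included Cald1, the caldesmon of smooth and non-muscle filaments, at 0.65 ± 0.144 (adjusted p = 0.0105) and Actn4, a non-muscle alpha-actinin, at -0.60 ± 0.147 (adjusted p = 0.0173). In MB knockdown, where 3.84% of all genes were called, 1 of the 14 thin filament genes was, namely Cap2, an actin-binding protein of muscle, at 2.20 ± 0.474 (adjusted p = 0.0299); it had 3 and 52 counts in MB_shKap1, against 0 and 11 counts in MB_shCtrl. None of the 17 actin filament genes was called in MB knockdown (edgeR), and 1 had an unadjusted p under 0.05.

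Genes of fast and of slow fibres were mostly lower in the knockdown. Of 11 tested genes of fast fibres 10 were lower in MT_shKap1, with a median log2 change of -5.61. Of 10 tested genes of slow fibres 9 were lower, with a median of -5.74, and none of either list was higher. Over all genes tested, 9.09% were called higher and 11.2% lower in this comparison, with a median log2 change of 0.02. Atp2a1, the calcium pump of fast fibres, changed by -5.67 ± 0.179 and Casq2, the calcium store protein of slow fibres and heart, by -6.52 ± 0.185 (both adjusted p = 3.52e-08, edgeR). Among 11 tested transcription factors of muscle genes, 5 were lower and 1 higher in MT_shKap1. Myog, the myogenic factor of differentiation, had 30.2 CPM in MT_shKap1, against 795 CPM in MT_shCtrl (-4.86 ± 0.162), and Mef2c 0.303 CPM in MT_shKap1, against 21.6 CPM in MT_shCtrl (-6.28 ± 0.382). In MB cells Myog was also the factor called lower, beside 2.51% of all genes called higher and 1.34% lower. It had 0.686 and 14.1 CPM in MB_shKap1, against 1.26 and 32.9 CPM in MB_shCtrl (-1.18 ± 0.131, adjusted p = 0.00122, edgeR).

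Markers of the line and of other cells were read the same way, beside 20.3% of all genes called in MT knockdown (9.09% higher, 11.2% lower) and 3.84% in MB knockdown (2.51% higher, 1.34% lower). Of 8 myoblast markers 3 were lower and none higher in MT knockdown. Of 7 smooth muscle markers, which C2C12 cells also express, 4 were higher and 1 lower in MT knockdown, and their sum was 6001 CPM in MT_shKap1, against 5717 CPM in MT_shCtrl. In MB knockdown 5 of the 7 were higher, at sums of 6408 and 2150 CPM in MB_shKap1, against 3364 and 1447 CPM in MB_shCtrl. Of 6 tested fibroblast markers 3 were lower in MT knockdown, at sums of 22768 CPM in MT_shKap1, against 28703 CPM in MT_shCtrl, and in MB knockdown 3 were higher, at sums of 13990 and 15394 CPM in MB_shKap1, against 8850 and 11529 CPM in MB_shCtrl. The 9 heart markers summed to 26.7 CPM in MT_shKap1, against 67.4 CPM in MT_shCtrl, with Myl7 and Tbx5 at 0 in both and Nppb at 0 in MT_shCtrl; of 4 tested, 1 was lower. These 3 genes were named after their values were seen: the lower one was Myh6, a cardiac myosin heavy chain, at 0.579 CPM in MT_shKap1, against 41.4 CPM in MT_shCtrl, while Gata4 had 20.7 CPM in MT_shKap1, against 23.2 CPM in MT_shCtrl, and Nkx2-5 had 1.82 CPM in MT_shKap1, against 0.863 CPM in MT_shCtrl. Blood and endothelial markers summed to at most 0.502 CPM in any library. The part of these markers in the troponin results was not tested.

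The genes between the paired troponins gave a local view. Lad1, between Tnni1 and Tnnt2, had 1 count in MT_shKap1 and 69 counts in MT_shCtrl, and Pkp1, on the other side of Tnnt2, had 12.1 CPM in MT_shKap1, against 100 CPM in MT_shCtrl. Lsp1, between Tnni2 and Tnnt3, had 264 CPM in MT_shKap1, against 263 CPM in MT_shCtrl, while the 2 members beside it differed by folds of 83 and 31.3. Syt8, on the other side of Tnni2, had 0.497 CPM in MT_shKap1, against 6.24 CPM in MT_shCtrl. Beside Tpm2, Tln1 had 570 CPM in MT_shKap1, against 530 CPM in MT_shCtrl, and Car9 had 5.1 CPM in MT_shKap1, against 13.5 CPM in MT_shCtrl. Ppp1r12c, beside Tnnt1, had 108 CPM in MT_shKap1, against 87.3 CPM in MT_shCtrl. Phlda3, beside Tnni1, had 168 CPM in MT_shKap1, against 183 CPM in MT_shCtrl. Mrpl23, beside Tnnt3, had 26.8 CPM in MT_shKap1, against 20.7 CPM in MT_shCtrl. With Tnni3, given above, these are all the neighbours of the members called in MT knockdown. They included genes with levels close between the MT libraries and genes lower in MT_shKap1. Prr33, which lies over 46.2% of the span of Tnnt3 on the opposite strand without shared exons, had 6.29 CPM in MT_shKap1, against 17.9 CPM in MT_shCtrl.

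Among the members, Tnni1, Tnni2 and Tnnt3 had profiles close to one another across the 6 libraries. Likeness was the root mean square difference of centred log2 levels over 6 libraries, which share their depth and their mark, and it is a description with no test. It was 0.30 between Tnni1 and Tnni2, 0.31 between Tnnt3 and Tnni1, and 0.46 between Tnnt3 and Tnni2. Tnnt1 lay 0.66 from Tnnt3, 0.88 from Tnni1 and 1.09 from Tnni2. Tnnt2 lay 1.09 from Tnni2 and 1.70 from Tnnt1. Tpm1 lay 0.39 from Tpm3 and 0.62 from Tpm2. Among 12528 other genes the nearest to Tnni2 were Myl4 at 0.07, Casq2 at 0.19 and Acta1 at 0.23. The nearest to Tnni1 were Atp2a1, Mylpf and Mymk, at 0.22 to 0.23, and Tnnt3 was nearest to Ryr1, Atp2a1 and Mylpf, at 0.26 to 0.28. Tnnt1 was nearest to Chrng at 0.24, a subunit of the embryonic acetylcholine receptor, with 20.6 CPM in MT_shKap1, against 322 CPM in MT_shCtrl. Tnnt2 was nearest to Prkag3 at 0.29 and Tpm2 to Adgrg1 at 0.14. Tpm1 was nearest to Sgsm3 at 0.03 and Tpm3 to Aven at 0.02.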

How the data were processed

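The values are whole-number counts per Ensembl gene, deposited by the authors, for 6 libraries. TopHat2 2.0.11, HTSeq and the mm9 build are listed in the submitters' processing notes; the sources used here name no annotation, counting mode or strand setting. Lines naming no gene were left out of totals: reads outside genes were 5.18% to 8.07% and ambiguous reads 2.81% to 2.93%.

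Counts were tested with edgeR 4.0.16 (R 4.3.3; TMM, filterByExpr, robust quasi-likelihood), adjusted by Benjamini-Hochberg over all 16472 genes kept. TMM factors ran from 0.972 to 1.07. The SE is the absolute log2 change of a fit with no prior count, divided by the root of the F value of the test. The printed log2 change is that of the edgeR test, which can differ from it at low counts. Alternatives were DESeq2 1.42.0, other scalings, no filter, a term for the file mark, and each MB library left out. The scripts were tested on simulated data. Using the fit with the file mark to describe calls was decided with earlier results known, as were the choice of members and lists. Intervals are exact at the 95% level and, like the floor of 3 counts, cover counting error only. Symbols and lengths came from a GRCm38 annotation, not mm9, and no coordinates were carried between builds.

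Named genes are all members, Tnni3, Tpm4, up to 4 genes per list and comparison with the smallest p, neighbours, and the 3 genes most like each member; genes other than members needed a mean of at least 1 CPM in the lists and in the likeness.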

Additional observations from a re-analysis of the deposited data

Results flagged for a closer look

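The knockdown effect differed between MT and MB cells for 6 of the 8 tested members. These calls come from the interaction term of the edgeR fit with the file mark as a term. It called 10.5% of all genes tested, 3.82% higher and 6.63% lower. The log2 difference (MT effect minus MB effect) was -3.61 for Tnnt1 (adjusted p = 2.74e-06), -3.87 for Tnnt2 (adjusted p = 0.00015), -5.15 for Tnnt3 (adjusted p = 2.64e-05), -5.38 for Tnni1 (adjusted p = 0.00888), -6.07 for Tnni2 (adjusted p = 6.97e-07) and -2.06 for Tpm2 (adjusted p = 0.000257). Without the mark as a term none passed in edgeR, and 2 of the 8 had an unadjusted p under 0.05.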

How the results depend on the processing

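Counts of members called rest on the file mark being a term. With that term (the replicate block) edgeR called 1, 6, 5, 7 and 6 members in MB knockdown, MT knockdown, MT against MB in knockdown cells, MT against MB in control cells, and the interaction, against 0 in each without it. Over all genes tested the block fit called 3.84%, 20.3%, 33.1%, 44.9% and 10.5% in the same order, against 0% without the term. The block counts of members were the same with total counts, with RLE scaling and with DESeq2. Without a filter the block fit called 1, 6, 5, 8 and 5: Tnni1 no longer passed in the interaction (adjusted p = 0.0881) or in MT against MB in knockdown cells (adjusted p = 0.0638), where Tpm3 then passed (adjusted p = 0.0248). Tnnc1 and Tnnc2 also enter a fit without a filter, so these counts are out of 10 members. The share of all genes called is not given for fits without a filter or with 1 library left out. With no block, DESeq2 called 2 members in MT knockdown, 5 in MT against MB in control cells and 1 in the interaction. Over all genes with an adjusted p, DESeq2 called 360 of 15605, 2379 of 15126 and 158 of 15126 in these comparisons. Also with no block, edgeR without a filter called 1 member in MT against MB in control cells. In that comparison leaving out 1 MB library gave 0 to 1. The replicate numbers match the file mark, but the labels do not declare pairs and there are only 2, so the r of 0.826 given above is a hint from the data.

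Of 568 alternative log2 changes of 40 member values, 33 changed sign, over 8 values that passed in no fit except Tnni2 in MT against MB in knockdown cells, which passed with the block; the cause was not tested. In MB knockdown, leaving out 1 library moved Tnnt1 between -3.23 and 3.80, Tnnt3 between -2.16 and 2.70, Tnni1 between -2.82 and 2.59, Tnni2 between -2.88 and 2.46, Tpm1 between -0.18 and 0.18 and Tpm2 between -0.16 and 0.68. Tnnt3 in MB knockdown was -0.09 without the block and 0.04 with it, and in the block fits 0.04 with RLE, 0.07 with total counts, 0.05 without a filter and 0.09 with DESeq2. Among libraries with the mark alone it was 0.48, with Tnni1 at 0.35 and Tnni2 at 0.05. Tpm1 in MB knockdown was 0.02 with total counts and 0.00 without a filter, 0.03 and 0.01 in the same fits with the block, and 0.08 in libraries without the mark. In MT against MB in knockdown cells, Tnni2 ran from -0.11 to 3.14 and Tpm2 from -0.35 to 0.50 without 1 library. Tpm2 there was -0.03 without a filter and -0.25 with the block. In the block fits it was -0.17 with total counts, -0.26 with RLE, -0.30 without a filter and -0.26 with DESeq2, and it was -0.27 in libraries with the mark. The union of exons as the length moved 43 of 48 shares within a class.

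MB replicate 1 of either group held 15 to 71 counts of Tnnt1, Tnnt3, Tnni1 and Tnni2, which widens the counting interval of their folds over it, and 1 library per MT group leaves no replicate of any MT value.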
